A study of Mus musculus with 24 samples.

Results

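The subject is a set of 35 genes of neurogenesis and cell division, measured in hippocampal RNA of offspring whose fathers or paternal grandfathers ate a methyl donor-rich diet (MD) or a control diet (CD). The genes were chosen by name and not by a threshold on their values, each was represented by the probe that was brightest on average over all 24 arrays, and all 35 were found among the 19751 genes with a named probe. They fall into 6 genes of neural progenitors, 10 of immature neurons and 19 of cell division. There were 6 arrays for each diet in the first (F1) and in the second (F2) generation, 24 in all. C57BL/6J sires ate CD or a diet enriched in methionine, choline, betaine, folic acid, vitamin B12 and zinc for 6 weeks and were then mated with 129S6/SvEv females. F1 mice are labelled as congenic C57BL/6J x 129S6/SvEv hybrids and F2 mice, sired by F1 males with CD F1 females, as mixed hybrids of the same strains. All offspring themselves ate the control diet, and each array holds the pooled RNA of 4 mice. The labels give the age as 4 weeks, whereas the methods of the study speak of adult offspring without naming the arrays, so that the age is not settled. The value used is the base 2 logarithm of the array signal (log2 signal), so that a difference of 1 is a doubling, and differences are written as MD minus CD.

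New granule neurons are made throughout life in the dentate gyrus of the hippocampus. Quiescent radial glia-like stem cells that express Nes, Sox2, Hes5 and Hopx give rise to dividing intermediate progenitors that express Eomes and Neurog2, and these become immature neurons marked by Dcx, Neurod1, Sox4 and Sox11. Division itself follows a fixed order: the Mcm proteins, Pcna and Rrm2 serve DNA replication, Ccna2 and Cdk1 drive cells on toward mitosis, and Ccnb1, Ccnb2, Aurka, Bub1, Tpx2, Top2a and Ube2c act in mitosis. In whole hippocampus dividing cells are a small share of the tissue and include glial precursors, and in such bulk RNA fewer cells of a type and less RNA per cell cannot be told apart.

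Genes of cell division are known to share promoter elements, chiefly the CCAAT box bound by NF-Y and, in late cell cycle genes, the element TTTGAA. Promoter sequences of 29 of the 35 genes were found in RefSeq (GRCm38.p6). Within the 250 bases before the start of the gene, CCAAT was present on either strand in 14 of the 15 cell division promoters, in 4 of 6 progenitor promoters and in 5 of 8 immature neuron promoters, beside 34.5% of 27025 promoters of all genes. TTTGAA on either strand was present in 6 of 15, 0 of 6 and 2 of 8, beside 16.3% of all promoters, and both elements together in 6 of 15, 0 of 6 and 1 of 8 beside 5.73% of all. E2F-like letters, searched as TTTGGCGC, TTTCCCGC, TTTCGCGC or TTTGCCGC on either strand, were present in 2 of 15 cell division, 1 of 6 progenitor and 0 of 8 immature neuron promoters beside 1.91% of all. The 150 bases before the start are shown for 4 genes of mitosis and late cell cycle whose promoters hold these elements, and for Pcna and Neurod1, a pair that covaried in both generations and was chosen for that. They lie on the minus strand at chr7:135716380-135716529, chr9:70421555-70421704, chr10:69352913-69353062, chr11:99024190-99024339, chr2:132253181-132253330 and chr2:79456637-79456786, are written from 5′ to 3′ in the direction of the gene, and carry the matched elements in capitals, which do not overlap.
Mki67: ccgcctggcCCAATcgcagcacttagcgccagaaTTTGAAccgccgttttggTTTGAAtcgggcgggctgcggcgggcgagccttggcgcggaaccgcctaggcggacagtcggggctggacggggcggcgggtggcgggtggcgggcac
Ccnb2: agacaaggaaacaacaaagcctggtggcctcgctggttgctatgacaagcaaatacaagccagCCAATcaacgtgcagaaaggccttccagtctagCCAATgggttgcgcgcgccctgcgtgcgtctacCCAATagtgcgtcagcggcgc
Cdk1: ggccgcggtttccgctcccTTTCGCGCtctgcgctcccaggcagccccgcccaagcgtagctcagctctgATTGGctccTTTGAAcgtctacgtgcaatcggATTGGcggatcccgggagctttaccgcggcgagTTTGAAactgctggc
Top2a: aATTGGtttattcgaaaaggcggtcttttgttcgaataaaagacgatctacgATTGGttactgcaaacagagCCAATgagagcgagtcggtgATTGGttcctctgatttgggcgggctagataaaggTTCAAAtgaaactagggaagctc
Pcna: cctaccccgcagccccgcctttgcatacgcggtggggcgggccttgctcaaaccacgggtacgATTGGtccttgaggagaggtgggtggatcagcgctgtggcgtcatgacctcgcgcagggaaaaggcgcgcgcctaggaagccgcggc
Neurod1: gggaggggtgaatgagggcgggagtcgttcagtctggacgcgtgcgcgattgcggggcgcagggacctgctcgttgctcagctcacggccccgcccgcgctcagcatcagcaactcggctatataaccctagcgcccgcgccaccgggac
In these 150 bases Ccnb2 had 3 CCAAT elements, Top2a had 4 and Cdk1 had 2. Mki67 and Cdk1 each had 2 TTTGAA elements, Pcna had 1 CCAAT element, and no searched element lay in the Neurod1 window. A match is a stretch of letters and does not show that a factor binds there.

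The arrays had a median intensity of 148 to 318 and between 27383 and 37013 spots well above background. Their number limits the precision of each value. In F1 the median intensity was 251 to 318 in CD and 167 to 262 in MD, so that the MD range lay lower, with some overlap. In F2 it was 151 to 262 in CD and 148 to 262 in MD. Whether the lower intensity in MD F1 bears on the differences of dim probes was not tested. Each generation lay on 3 slides of its own with 2 arrays of each group per slide, so that generation and slide cannot be told apart while diet was balanced over slides. MD F1 replicate 6 correlated less with the other F1 arrays (mean r = 0.985, others 0.992 to 0.994), as did CD F2 replicate 6 and MD F2 replicate 3 in F2 (0.977 and 0.974, others 0.986 to 0.988). The 8 granule neuron and 8 pyramidal neuron markers were well above background on all arrays, apart from 1 granule neuron marker in MD F2. Ependymal markers were higher in MD F1 and lower in MD F2 in 6 of 6 genes each (medians 0.44 and -0.69). Of these, 5 and 6 genes were at an unadjusted p under 0.05 in limma, beside 6.96% of all probes higher in F1 and 2.38% lower in F2. For the difference of the diet effects between generations 1 of them, Ccdc153, was called in limma (FDR 0.066, threshold 0.1), beside 0.0127% of all probes. The 6 choroid plexus markers had medians of 0.51 in F1 and -2.26 in F2. The log2 of the summed choroid plexus signal ranged from 11.8 to 16.6 over the CD F1 arrays, 11.9 to 17.8 over MD F1, 11.2 to 18.1 over CD F2 and 11.5 to 17.7 over MD F2. With this level as a covariate no gene of the set was called. Of the 32 genes with a fold change, those with a difference of at least 0.1 in either fit that changed sign or moved by over 1.5 times numbered 3 in F1 (Neurod2, Dcx and Ccnb1) and 16 in F2. The sex measure of an array, the difference between its Y-linked and Xist signal, lay between -2.30 and -1.90 on the CD F1 arrays. On the MD F1 arrays it lay between -2.15 and 0.16, the highest value being that of replicate 6. In F1 the measure was thus not balanced over the diets, and a fit with it as a covariate cannot fully part the 2. In F2 it was -7.43 or lower on 3 arrays (CD F2 replicates 3 and 5 and MD F2 replicate 6) and 5.23 or higher on 9.

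Most of the genes were well above background, as were 24114 of all 39429 probes on every array. Of the 35, 29 were well above background on all 24 arrays, among them all 6 progenitor genes, 9 of 10 immature neuron genes and 14 of 19 cell division genes. Cdk1, the kinase that starts mitosis, and Bub1, a kinase of the spindle checkpoint, were well above background on 22 arrays each, and Tpx2, a spindle assembly factor, on 23. Draxin, a repulsive axon guidance protein, passed on 4 arrays, 2 of CD F1 and 2 of CD F2. Aurkb, a kinase of the chromosomal passenger complex, and Cenpf, a centromere protein, passed on none of the arrays. No fold change is given for these last 3 genes, and no spot of the 35 genes was saturated.

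No gene of the set passed the threshold of an FDR under 0.1 in either generation. The smallest FDR among the 32 genes with a fold change was 0.26 in F1 and 0.89 in F2 (limma with Benjamini-Hochberg adjustment over all probes). Over all probes 0.0330% were called in F1 and 0 of 39423 in F2, for which limma gave 2209 probes at an unadjusted p under 0.05. At an unadjusted p under 0.05 there was 1 gene of the set in F1, Eomes, which was lower in MD, beside 14.4% of all probes (7.48% lower and 6.96% higher). There was 1 in F2, Mcm5, which was higher in MD, beside 5.60% of all probes (2.38% lower and 3.22% higher). These shares were 14.5% in F1 and 6.34% in F2 among the brightest probes of genes detected on at least 6 arrays. In 0 of the 35 genes were the 2 diets without overlap in F1 (1.79% of all probes) or in F2 (0.365%). Without the arrays that stood apart 0 genes were called in F1 and F2, with 1 gene at an unadjusted p under 0.05 in F1 (Eomes) and 2 in F2 (Ccna2 and Neurod2).

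The intervals describe how precisely the difference was measured on the 1 probe that stands for each gene, and other probes of the same genes, described further on, gave larger differences for Tbr1 and Dcx. On the chosen probes the 95% interval of the difference reached a median of 0.22 to either side in F1 and 0.26 in F2. It lay within a 1.5-fold difference in either direction for 30 of 32 genes in F1, the exceptions being Eomes and Tpx2, and for 28 of 32 in F2, the exceptions being Eomes, Neurog2, Cdk1 and Tpx2. Over the 32 genes with a fold change, the median difference was 0.022 in F1 and -0.034 in F2 for progenitor genes. It was -0.0042 and 0.050 for immature neuron genes, and -0.011 and -0.035 for cell division genes. Over all probes it was 0.0065 in F1 and 0.015 in F2. The spread between arrays of the same group was 0.17 (median SD over genes) in F1 and 0.20 in F2, close to the 0.18 and 0.19 of all probes well above background on every array.

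**Figure D1:**
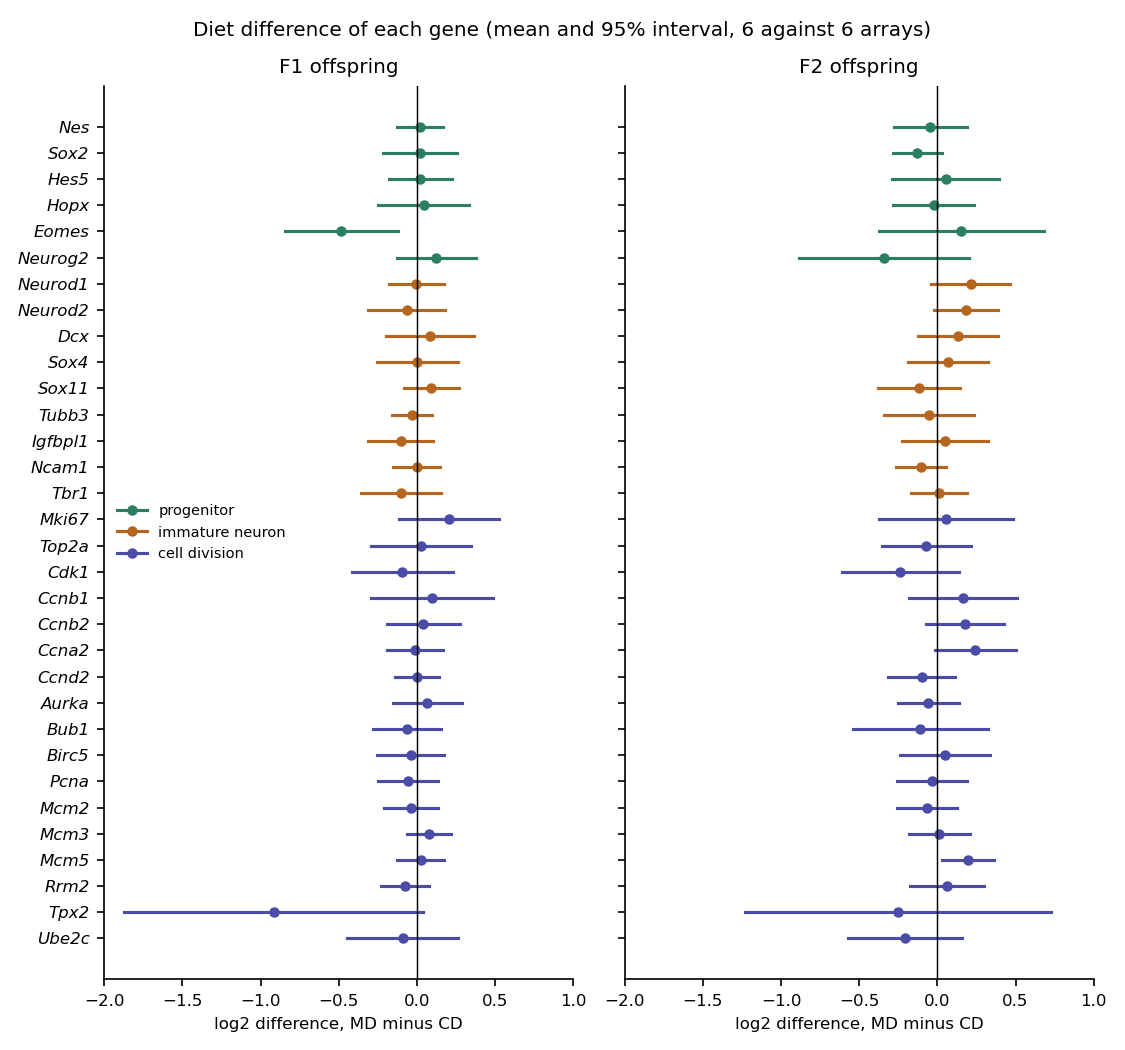
Difference in log2 signal between MD and CD for 32 genes in F1 (left) and F2 (right), as points with 95% intervals from limma, 6 against 6 arrays; the colors mark progenitor, immature neuron and cell division genes. The intervals of 31 genes hold 0 in each generation, the exceptions being Eomes in F1 and Mcm5 in F2.

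Among the progenitor genes, Eomes, the T-box factor of intermediate progenitors also called Tbr2, had the largest difference in F1. Its log2 signal was 6.31 at the lowest, 6.71 at the median and 7.45 at the highest of the CD F1 arrays, and 6.01, 6.25 and 6.52 in MD F1. The groups overlapped, with 4 of 6 MD F1 arrays below every CD F1 array. The means were 6.75 ± 0.39 for the CD F1 arrays and 6.27 ± 0.18 for those of MD F1 (SD, n = 6 each), a difference of -0.48 ± 0.17 (SE) with an FDR of 0.26 in limma (two-sided exact permutation test, unadjusted p = 0.011). The difference was -0.25 after normexp background correction and -0.40 with the sex measure of each array as a covariate, where the unadjusted limma p was 0.074. In F2 the Eomes arrays spanned 4.98 to 6.17 in CD F2 (median 5.67) and 5.36 to 6.39 in MD F2 (median 5.80), and the difference was 0.15 ± 0.24 (SE, FDR 0.97) and -0.017 with the choroid plexus level as a covariate. Its second probe was well above background on 7 of 24 arrays, with a difference of 0.18 in F1.

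Neurog2, a proneural factor of intermediate progenitors, had a median of 6.33 in CD F1 (6.08 to 6.45) and 6.38 in MD F1 (6.15 to 6.81), and 5.90 in CD F2 (4.99 to 6.19) and 5.54 in MD F2 (4.80 to 5.95). Both pairs of groups overlapped, and the differences were 0.12 ± 0.12 (SE, FDR 0.63) in F1 and -0.34 ± 0.25 (SE, FDR 0.92) in F2. They were 0.046 in F1 without the array that stood apart and -0.13 in F2 with the choroid plexus level as a covariate. Sox2, which keeps stem cells in their state, had arrays between 10.30 and 10.59 in CD F2 and between 10.11 and 10.41 in MD F2, with medians of 10.42 and 10.31. In F2 2 of 6 MD arrays lay below every CD array, with a difference of -0.13 ± 0.071 (SE, FDR 0.91). Before adjustment p was 0.096 in limma and 0.041 in the exact permutation test. In F1 the Sox2 means were 10.73 ± 0.17 (SD, n = 6) and 10.75 ± 0.21 (SD, n = 6).

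Nes encodes nestin, the intermediate filament of neural stem cells. Its signal was 8.81 at the lowest, 9.03 at the median and 9.12 at the highest in CD F1, and 8.91, 9.03 and 9.13 in MD F1. In F2 it was 8.95, 9.10 and 9.44 in CD and 8.89, 9.02 and 9.42 in MD. The diets covered the same range in each generation, with differences of 0.022 ± 0.067 (SE) and -0.046 ± 0.11 (SE). Hes5, a Notch target, and Hopx, a marker of quiescent stem cells that astrocytes also express, differed by at most 0.054 in either generation. These values did not hold in other fits. Hopx differed in F1 by 0.16 without MD F1 replicate 6 and by 0.27 with the sex measure as a covariate (FDR 0.47 in limma, the gene of the set at an unadjusted p under 0.05 in that fit), and in F2 by -0.15 with the choroid plexus level, where Hes5 differed by -0.105.

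Among the 9 immature neuron genes with a fold change the differences ranged from -0.10 to 0.092 in F1 and from -0.12 to 0.21 in F2. Dcx, the microtubule protein doublecortin, had a log2 signal of 9.15, 9.30 and 9.501 (lowest, median and highest) in CD F1 and 9.04, 9.42 and 9.77 in MD F1. The MD F1 arrays spread to both sides of the CD F1 arrays, and the difference was 0.084 ± 0.13 (SE, FDR 0.78), 0.135 with the choroid plexus level and -0.13 with the sex measure as a covariate. In F2 the values were 9.27, 9.66 and 9.91 in CD and 9.58, 9.75 and 9.97 in MD, a difference of 0.13 ± 0.12 (SE, FDR 0.94) that was 0.21 with the choroid plexus level. Neurod1, a factor of newborn granule neurons, ranged from 9.79 to 10.13 on the CD F1 arrays (median 10.05) and from 9.82 to 10.10 on the MD F1 arrays (median 10.02). In F2 it spanned 9.35 to 9.97 (median 9.61) in CD and 9.76 to 9.995 (median 9.87) in MD, so that 4 CD F2 arrays lay below every MD F2 array, and the difference was 0.21 ± 0.11 (SE, FDR 0.91, exact permutation p = 0.11 before adjustment). With the choroid plexus level as a covariate it was 0.28 (FDR 0.995 in limma), and it was the gene of the set at an unadjusted p under 0.05 in that fit. A second Neurod1 probe, well above background on every F2 array at a mean of 9.77, differed by 0.071 ± 0.087 (SE, FDR 0.95) in F2. The mean of the gene's probes gave 0.14 (FDR 0.92). Neurod2, a related factor of maturing neurons, ranged from 14.26 to 14.65 on the CD F2 arrays (median 14.38) and from 14.44 to 14.77 on the MD F2 arrays (median 14.56). Its difference was 0.18 ± 0.094 (SE, FDR 0.91), 0.26 without the arrays that stood apart and 0.073 with the choroid plexus level as a covariate. In F1 its difference was -0.066, and -0.104 with that covariate.

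Sox11, a factor of the immature neuron program, had the smallest p of its group in F1. Its arrays spanned 10.14 to 10.33 (median 10.19) in CD F1 and 10.12 to 10.60 (median 10.29) in MD F1, a difference of 0.092 ± 0.080 (SE, FDR 0.61). Igfbpl1, which marks newborn neurons, spanned 9.46 to 9.86 (median 9.61) in CD F1 and 9.25 to 9.77 (median 9.55) in MD F1, a difference of -0.10 ± 0.096 (SE, FDR 0.63). Tbr1, a T-box factor of postmitotic excitatory neurons, had 11.93, 12.46 and 12.64 (lowest, median and highest) in CD F1 and 12.02, 12.33 and 12.44 in MD F1. In F2 it had 12.11, 12.19 and 12.50 in CD and 12.09, 12.27 and 12.34 in MD. In all of these genes the arrays of the diets overlapped.

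Sox4, Tubb3 and Ncam1 had differences between -0.033 and 0.003 in F1 and between -0.11 and 0.067 in F2. Tubb3 is the tubulin of neurons and Ncam1 a cell adhesion molecule whose polysialylated form marks young neurons, and mature neurons express both genes too.

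The cell division genes open with those of DNA replication. Pcna, the sliding clamp of DNA polymerase, had 12.44, 12.66 and 12.83 (lowest, median and highest) in CD F1 and 12.45, 12.62 and 12.75 in MD F1, and 11.89, 12.03 and 12.38 in CD F2 and 11.88, 12.05 and 12.21 in MD F2. The diets shared their range, with differences of -0.056 ± 0.088 (SE) and -0.035 ± 0.10 (SE). Mcm5, a subunit of the replicative helicase, had the smallest p of the set in F2. Its CD F2 arrays spanned 8.76 to 9.14 (median 9.01) and its MD F2 arrays 9.09 to 9.30 (median 9.17), and 5 of 6 MD F2 arrays lay above every CD F2 array. The means were 8.99 ± 0.14 (SD, n = 6) and 9.19 ± 0.071 (SD, n = 6), a difference of 0.19 ± 0.076 (SE) with an FDR of 0.89 in limma (two-sided exact permutation test, unadjusted p = 0.011). The unadjusted limma p was 0.051 without the arrays that stood apart and 0.079 with the choroid plexus level as a covariate. Mcm2 and Mcm3, of the same helicase, differed by -0.066 ± 0.088 (SE) and 0.013 ± 0.089 (SE) in F2.

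Of the mitotic genes, Mki67, which encodes the proliferation marker Ki-67, had 9.42, 9.53 and 9.60 (lowest, median and highest) in CD F1 and 9.34, 9.68 and 10.35 in MD F1. Its MD F1 arrays were more spread out (SD 0.38) than its CD F1 arrays (SD 0.061), and the difference was 0.21 ± 0.15 (SE, FDR 0.52). It was 0.084 without MD F1 replicate 6 and 0.036 with the sex measure as a covariate. In F2 it had 8.12, 8.43 and 8.89 in CD and 8.12, 8.57 and 8.92 in MD, a difference of 0.055 ± 0.20 (SE). Ccna2, cyclin A2 of S and G2 phase, spanned 8.17 to 8.62 (median 8.42) in CD F2 and 8.34 to 8.92 (median 8.63) in MD F2, with a difference of 0.24 ± 0.12 (SE, FDR 0.89) that was 0.15 with the choroid plexus level as a covariate. In F1 its difference was -0.011 ± 0.082 (SE).

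The largest difference of the set was that of the Tpx2 probe chosen as brightest over all 24 arrays, and it rested in part on 1 array. In F1 this probe was the dimmer of the 2 Tpx2 probes and was brightest only through its F2 signal. Its signal was 5.39, 6.01 and 6.52 (lowest, median and highest) in CD F1 and 2.93, 5.47 and 5.95 in MD F1, where the lowest value was from replicate 6 and was not well above background. The difference was -0.92 ± 0.44 (SE, FDR 0.36), -0.49 without that array and -0.081 once the sex measure entered the fit. With all 12 arrays and no covariate, p before adjustment was 0.058 in limma and 0.039 in the exact permutation test. The second Tpx2 probe, the brighter one in F1 and well above background on every array, differed by 0.13 ± 0.10 (SE) in F1.

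**Figure D2:**
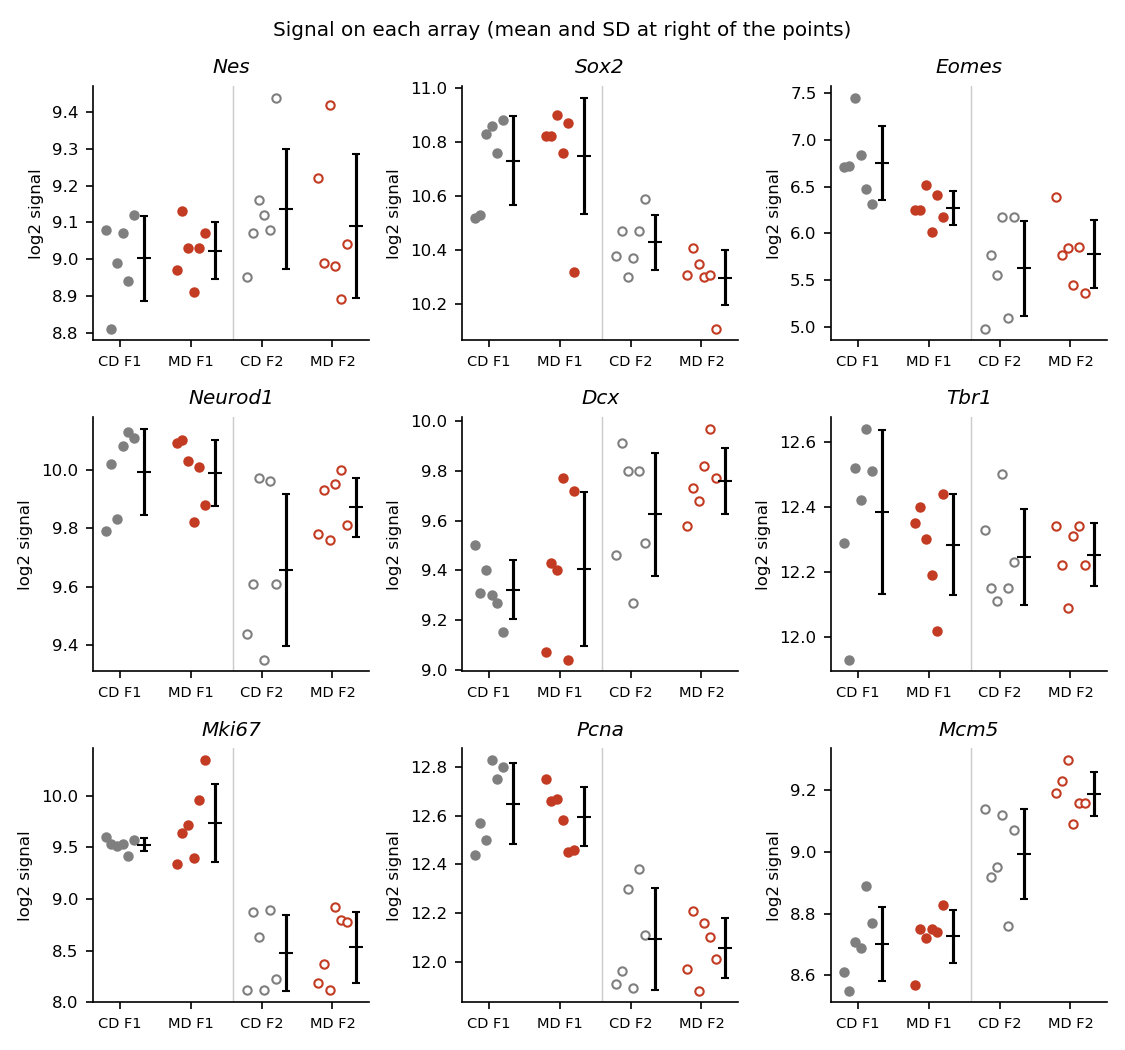
Log2 signal of 9 genes on each of the 24 arrays (filled points F1, open points F2, gray CD, red MD), with the mean and SD of each group of 6 at its right. Each generation was normalized on its own, so levels are not to be compared between F1 and F2. Arrays of the 2 diets overlap in every panel; for Eomes 4 of 6 MD F1 arrays lie below every CD F1 array.

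Genes with several probes did not always give 1 answer. The 35 genes had 20 further probes, of which 13 were well above background on every F1 array and 10 on every F2 array. In F1 5 of the 20 had a lower signal in MD at an unadjusted p under 0.05 and 0 a higher one, beside 12.4% lower among the other probes of all named genes. Of these 5, 3 were among the 13 well above background on every F1 array, and 1 was a Draxin probe that passed on none of them. In F2 there were 0 in either direction in limma, beside 2.97% lower. The lowest FDR among them was 0.20 in F1 and 0.91 in F2. Named after their values were seen, a second Tbr1 probe had a mean of 6.80 ± 0.19 for the CD F1 arrays and 6.03 ± 0.49 for those of MD F1 (SD, n = 6 each), a difference of -0.77 ± 0.20 (SE, FDR 0.20), where the brightest probe gave -0.10 ± 0.12 (SE). A second Sox4 probe had 5.99 ± 0.15 and 5.66 ± 0.14 (SD, n = 6 each), a difference of -0.33 ± 0.087 (SE, FDR 0.21), where the brightest gave 0.003 ± 0.12 (SE). A second probe of Ube2c, a ubiquitin-conjugating enzyme of mitotic exit, differed by -0.42 ± 0.16 (SE, FDR 0.29), and the brightest by -0.091 ± 0.16 (SE). A further Dcx probe, well above background on 11 of 12 F1 arrays, differed by -0.69 ± 0.27 (SE, FDR 0.30), and the brightest by 0.084 ± 0.13 (SE). The remaining Dcx probe, detected on as many, differed by -0.75 ± 0.47 (SE, FDR 0.48). On MD F1 replicate 6 the second Tbr1 probe had its lowest MD F1 value, 5.17 (next 5.83), the second Sox4 probe its highest, 5.84, and that of Ube2c a middle one. Fits of these probes without that array or with the sex measure are not given.

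Probes that were well above background on every array also differed in sign within a gene, with none past the threshold. For Mki67 the second probe differed by -0.12 ± 0.11 (SE) in F1, against 0.21 ± 0.15 (SE) for the brightest, and by -0.046 ± 0.21 (SE) in F2. For Neurod1 the second probe differed by 0.17 ± 0.10 (SE) in F1, against -0.004 ± 0.081 (SE), and for Hopx by -0.061 ± 0.11 (SE), against 0.043 ± 0.13 (SE). In F2 a second Sox11 probe differed by 0.042 ± 0.12 (SE), against -0.12 ± 0.12 (SE), and 1 of the further Ncam1 probes by 0.081 ± 0.071 (SE), against -0.11 ± 0.074 (SE). In each of these pairs the 95% intervals of both probes held 0.

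Probes of the same gene also parted between the generations. With all 24 arrays normalized together, the brightest Tpx2 probe stood at 5.76 in CD F1 and 9.62 in CD F2, while the second probe stood at 6.78 and 6.73. The second Sox4 probe went from 5.78 to 9.67 and the brightest from 10.66 to 10.95. Over the 24114 probes well above background on all arrays the median shift from CD F1 to CD F2 was -0.0048, and the 95th percentile was 1.45. Both probes of Mki67 were lower in CD F2 (-0.76 and -0.63), as were all 3 probes of Birc5, survivin of the chromosomal passenger complex (-1.12, -0.53 and -0.89). Top2a, the topoisomerase that untangles chromosomes, was higher by 1.47 and Mcm2 by 0.99. These differences cannot be told apart from those between slides and scans, or from those between the hybrid backgrounds of F1 and F2. The sex measure differed as well. It lay between -2.30 and 0.16 on the F1 arrays, and at -7.43 or lower or 5.23 or higher on those of F2.

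**Figure D3:**
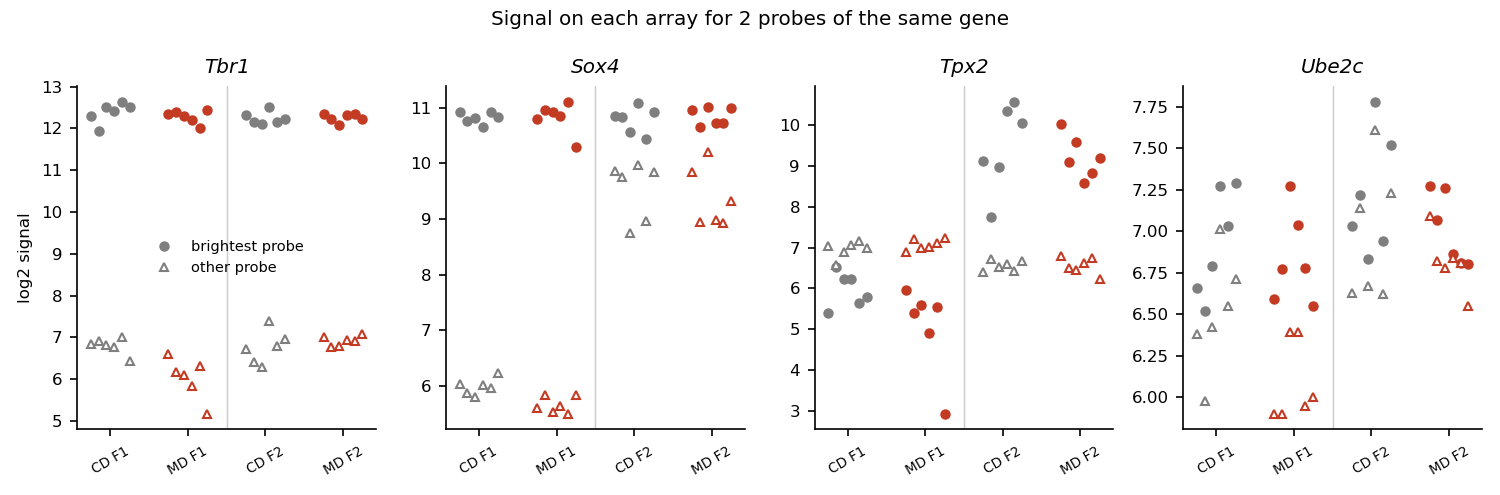
Log2 signal of the brightest probe (filled circles) and of another probe (open triangles) of Tbr1, Sox4, Tpx2 and Ube2c on each of the 24 arrays, gray for CD and red for MD. Each generation was normalized on its own. The second Tbr1 probe is lower in MD F1 by 0.77 where the brightest differs by 0.10. Here and with all arrays normalized together, 1 probe each of Sox4 and Tpx2 is higher in F2 than in F1 by over 3 log2 units while the other is not.

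The difference of the diet effects between generations was tested for each gene, and none was called at an FDR under 0.1 (0.0127% of all probes were called). Eomes was the only gene of the set at an unadjusted p under 0.05 in limma, beside 8.29% of all probes (4.59% below 0 and 3.70% above). Its difference of effects, F1 minus F2, was -0.65 ± 0.30 (SE) with an FDR of 0.58. Over all 35 genes, the count at that level was 0 after normexp (3192 probes in all) and with the sex measure (3641). It was also 0 with the choroid plexus level (2930) and without CD F1 replicate 3 (2906), beside 1 and 3268 in the reported fit. With array weights it was 7 (5417), with Cenpf among them and Eomes not. Among the 32 genes with a fold change the differences ranged from -0.69 for Tpx2 to 0.46 for Neurog2.

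Wider lists of the same pathways gave no calls either. Their counts at an unadjusted p under 0.05 are to be read beside the 14.4% of all probes in F1 (7.48% lower and 6.96% higher) and the 5.60% in F2 (2.38% lower and 3.22% higher), and nothing particular to a list is drawn from them. Of 20 further progenitor and stem cell genes, 2 were higher and 2 lower in MD F1 at an unadjusted p under 0.05, and 0 and 1 in MD F2. Id4, an inhibitor of differentiation, differed by 0.26 ± 0.091 (SE, FDR 0.26) and Emx1, a cortical homeobox factor, by 0.27 ± 0.10 (SE, FDR 0.29) in F1, while Vim, the filament vimentin, differed by -0.21 ± 0.087 (SE, FDR 0.89) and the SoxB1 factor Sox3 by 0.30 ± 0.14 (SE, FDR 0.89) in F2. Of 20 further immature neuron genes 0 were higher and 3 lower in F1, led by Rnd2 (-0.32 ± 0.089, SE, FDR 0.21) and the RNA-binding protein Elavl4 (-0.29 ± 0.094, SE, FDR 0.24), and 0 and 1 in F2, where Cd24a differed by -0.27 ± 0.11 (SE, FDR 0.89) and Dpysl3 by -0.11 ± 0.061 (SE, FDR 0.91). The list's median difference was -0.13 in F1 and -0.085 in F2. Of 41 further cell division genes 2 were higher and 1 lower in each generation. They included the mitotic kinesin Kif23 (0.32 ± 0.095, SE, FDR 0.22) and cyclin E1, Ccne1 (0.20 ± 0.086, SE, FDR 0.33) in F1, and the replication factor Gins1 (0.22 ± 0.089, SE) and thymidine kinase Tk1 (0.22 ± 0.096, SE) in F2, both with an FDR of 0.89. Their median was 0.081 in F1 and 0.026 in F2. Of 10 inhibitors of the cell cycle 0 were higher and 2 lower in F1, the p21 gene Cdkn1a (-0.28 ± 0.079, SE, FDR 0.21) and the antiproliferative gene Btg1 (-0.26 ± 0.090, SE, FDR 0.26), and 0 in F2, where Cdkn2c differed by 0.12 ± 0.068 (SE, FDR 0.92) and Cdkn1c by -0.59 ± 0.39 (SE, FDR 0.92).

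Covariation was measured as the correlation, over the 12 arrays of a generation, of each array's deviation from its group mean. For 10 pairs listed for their known roles, such as Mki67 with Top2a and Dcx with Sox11, r lay between -0.36 and 0.58 in F1 and between -0.42 and 0.48 in F2. None of these 20 relations had an adjusted p under 0.05 (permutation within groups, two-sided, Benjamini-Hochberg over 20, lowest adjusted p = 0.68). Mki67 with Top2a gave r = 0.29 in F1 (permutation p = 0.51, adjusted 0.68) with a Spearman correlation of 0.11 (permutation p = 0.76, adjusted 0.84). In F2 it gave r = -0.35 (permutation p = 0.28, adjusted 0.68) with Spearman -0.22 (permutation p = 0.51, adjusted 0.81), and r was -0.55 and -0.29 without the 2 arrays farthest from the median of Mki67. Mcm2 with Mcm5 gave r = 0.58 in F1 (permutation p = 0.10, adjusted 0.68) with Spearman 0.23 (permutation p = 0.50, adjusted 0.81), and r was 0.032 without the 2 arrays farthest from the Mcm2 median.

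Over the 29 genes well above background on every array, the median r of pairs of cell division genes was 0.16 in F1 (91 pairs) and 0.026 in F2. It was 0.23 and 0.0012 without the arrays that stood apart. Over all named genes the median was 0.016 in F1 and 0.004 in F2, and 4.48% and 5.25% of their pairs had r over 0.7. Among the 406 pairs of the set 3.94% had r over 0.7 in F1 and 4.19% in F2, which is near those shares. The correlations of F1 had almost no relation to those of F2 (r = 0.034 across the 406 pairs, 204 with the same sign), across pairs that share genes and arrays and so are no independent points.

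**Figure D4:**
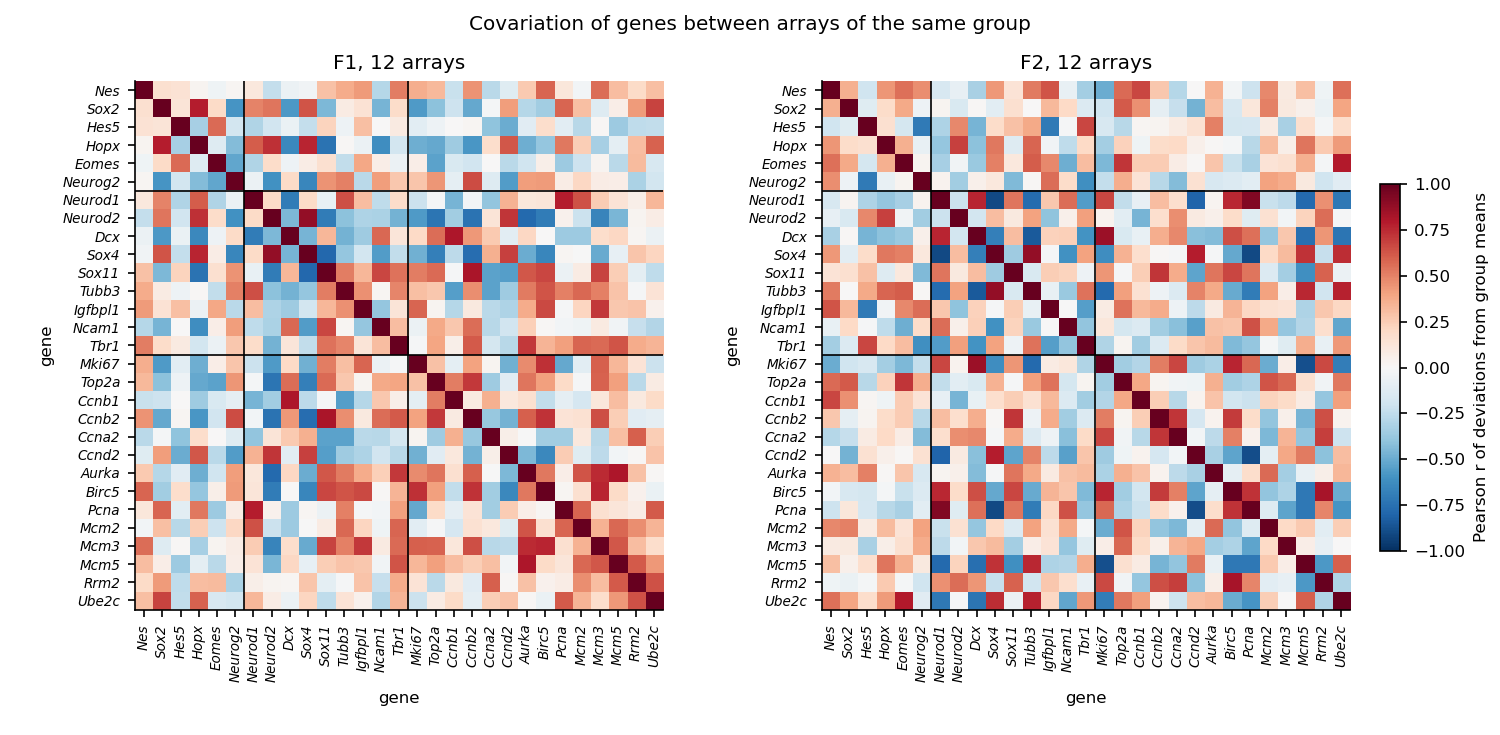
Pearson correlation of deviations from the group mean for 29 genes in F1 (left) and F2 (right), 12 arrays each, red for positive and blue for negative; lines part progenitor, immature neuron and cell division genes. The patterns differ between generations, and the median r among cell division genes is 0.16 in F1 and 0.026 in F2.

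Of the 16 pairs with r over 0.7 in F1 and the 17 in F2, 3 were shared, and they are described here without a test because they were chosen by these values. The closest was Neurod1 with Pcna, with r = 0.79 (Spearman 0.77) in F1 and 0.92 (Spearman 0.94) in F2. It was positive within each group (0.92 in CD F1, 0.56 in MD F1, 0.96 in CD F2 and 0.84 in MD F2). It was 0.87 and 0.92 with slide means removed, 0.81 and 0.85 without the 2 arrays farthest from the median of Neurod1, 0.77 and 0.94 without the arrays that stood apart, and 0.88 and 0.92 with the choroid plexus level removed. Mki67 with Birc5 gave 0.73 (Spearman 0.55) in F1 and 0.76 (Spearman 0.75) in F2, with 0.38 in F1 without MD F1 replicate 6. Sox11 with Ccnb2 gave 0.82 (Spearman 0.60) and 0.71 (Spearman 0.54), with 0.29 in F1 without the 2 farthest arrays and -0.37 within CD F1. Only positive r was counted here, and negative r of like size occurred too. In F2 Sox4 gave r = -0.90 with Neurod1 and with Pcna, Pcna gave -0.89 with Ccnd2, and Mki67 gave -0.88 with Mcm5. In F1 the same pairs gave 0.19, 0.018, 0.25 and 0.33. They too were chosen for their values.

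The pairs of Dcx with Neurod1 and Mki67 were also chosen for their values and are described without a test of the difference between generations. Dcx with Neurod1 gave r = -0.70 (Spearman -0.65) in F1, and 0.76 (Spearman 0.74) in F2, with the sign of each generation seen within both diets. It was -0.73 and 0.68 with slide means removed. Dcx with Mki67 gave 0.86 (Spearman 0.85) in F2 and 0.20 (Spearman 0.021) in F1, where the value depended on the arrays and covariates used. It was 0.83 in F1 without the 2 arrays farthest from the Dcx median, -0.31 without MD F1 replicate 6 and -0.38 with the sex measure removed.

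**Figure D5:**
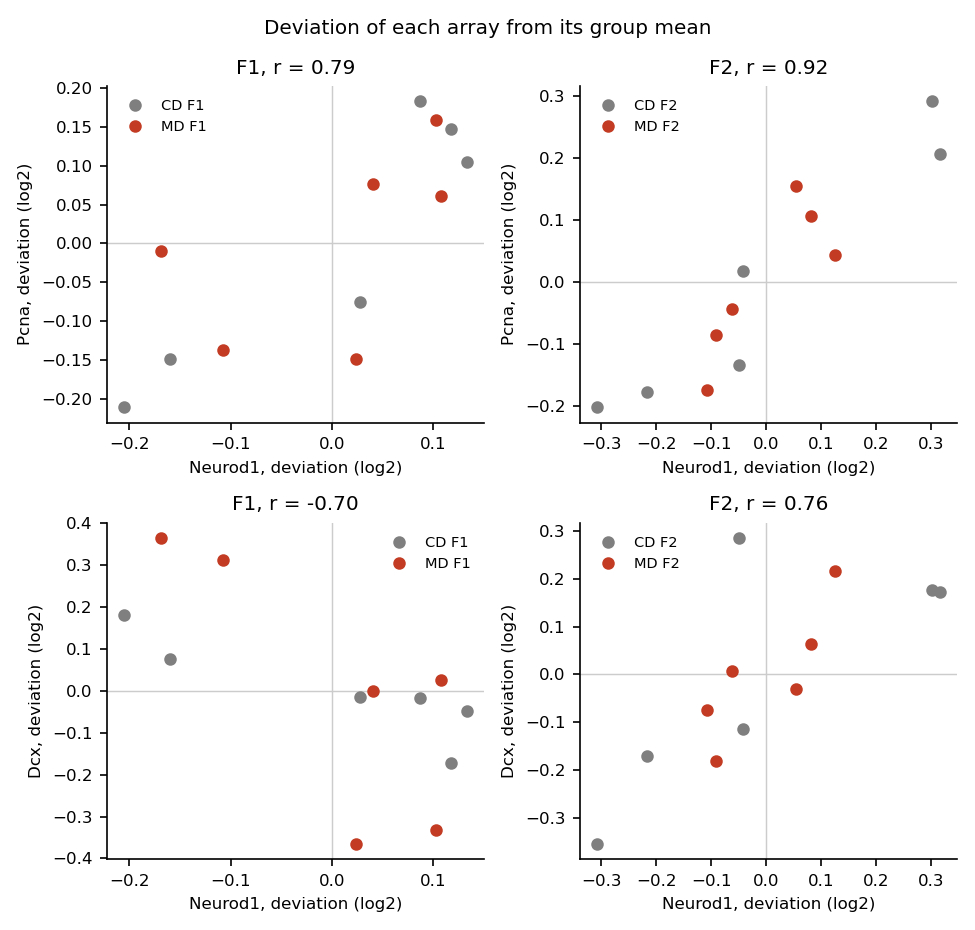
Deviation of each array from its group mean in log2 signal, for Pcna (top) and Dcx (bottom) against Neurod1, in F1 (left) and F2 (right), gray for CD and red for MD. The correlation with Neurod1 is positive in both generations for Pcna (r = 0.79 and 0.92), and for Dcx it is negative in F1 (r = -0.70) and positive in F2 (r = 0.76).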

How the data were processed

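Hippocampal RNA of 24 pools was measured on Agilent single-color arrays. The authors deposited Feature Extraction output, whose headers name version 10.7.3.1; its processed intensity has had background and spatial trend removed on each array and is not scaled between arrays. A deposited table of quantile-normalized intensities served as an alternative. Spots marked non-uniform or population outliers were left out, arrays were quantile-normalized on the log2 scale within each generation (all 24 together for the difference between generations), and spots of a probe were averaged. Probes were named through RefSeq identifiers (26053 of 39429 probes, 19751 symbols). Group means were compared with limma 3.58.1 in R 4.3.3, with FDR over all probes and a threshold of 0.1; single genes also by exact permutation over 924 divisions of 12 arrays, smallest p 0.0022. Pair correlations used 100000 permutations within groups. The sex measure is the difference between Y-linked and Xist signal. Normexp (offset 50) used median spot and background signals. The code was tested on simulated data. The members, lists and pairs were chosen with earlier results of these data known. Named genes are all members, further probes of a member well above background on all arrays that differ in sign or call, and, per wider list and generation, the 2 smallest p. Some further probes were named outside this rule, those of Tbr1, Ube2c and Dcx after their values were seen. Per-array values are given for the 2 smallest p per role and generation and for Nes, Eomes, Dcx, Mki67, Pcna and Tbr1. Pools are labelled as separate samples, and nothing says that they came from separate litters, so p-values measure the spread between pools. The choroid plexus level as a covariate was an alternative chosen after seeing the data. A granule neuron marker result is not reported here.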

Additional observations from a re-analysis of the deposited data

Results flagged for a closer look

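Among 140 sets of 6 arrays (35 genes in 4 groups), 9 held 1 array far from the other 5 by Dixon's test, where chance alone gives about 1 in 20, or 7. MD F1 replicate 6 held 4 of the 9. On it Sox2 was at 10.32 (others 10.76 to 10.90), Neurod2 at 14.28 (others 14.79 to 14.97), Tpx2 at 2.93 (others 4.91 to 5.95) and Aurka, a mitotic kinase, at 8.55 (others 8.08 to 8.22). MD F2 replicate 6 had Sox2 at 10.11 (others 10.30 to 10.41). Ncam1 was at 14.11 on MD F1 replicate 5 (others 14.39 to 14.49) and Ccnb2, cyclin B2, at 7.35 on CD F2 replicate 1 (others 7.86 to 7.88). Aurkb was at 1.11 on MD F1 replicate 1 (others 0.96 to 0.98) and at 1.97 on MD F2 replicate 6 (others 1.23 to 1.29), and like Tpx2 on MD F1 replicate 6 it was not well above background there.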

How the results depend on the processing

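No gene of the set was called in any of 12 leave-one-out fits per generation, in 24 of the difference between generations, in 16 other settings in F2 or in 14 for the difference between generations. In F1 1 of 15 other settings gave calls: without scaling between arrays 5 genes (Birc5, Bub1, Eomes, Igfbpl1 and Rrm2) were called, while 7952 probes were called in all and the median of all probes shifted by -0.28. The median differences were then -0.2527 for progenitor, -0.2530 for immature neuron and -0.3352 for cell division genes in F1, close to that shift. The count at an unadjusted p under 0.05 in F1 was 13 without scaling (13919 probes in all), 2 after normexp (5371), 3 with the mean of a gene's probes and 1 to 2 with an array left out (4375 to 6288), beside 1 and 5694 in the reported fit. In F2 it was 0 without scaling (547 probes), 2 without the arrays that stood apart (2359), 3 with the sex measure (2832), with all 24 arrays in 1 fit (3453) and with the lh or rh code as a block (2574), 7 with array weights (4637) and 1 to 3 with an array left out (1612 to 2580), beside 1 and 2209. These counts and the medians of this section are over all 35 genes, including Draxin, Aurkb and Cenpf, for which no fold change is given. In some of these fits Aurkb or Cenpf, well above background on none of the arrays, was among the genes counted. The median of the cell division genes in F2 was 0.0465 with array weights, beside -0.020 in the reported fit. The cause was not tested. With the sex measure the gene at that level in F1 was Hopx in place of Eomes, and with the choroid plexus level that in F2 was Neurod1 in place of Mcm5. Over all probes 0 to 540 were called in F1 with scaling (540 with array weights), 0 to 18 in F2 and 0 to 543 for the difference between generations. The signs of small differences were unstable: 0 to 16 of 35 changed over the other settings in F1 and 0 to 7 in F2. Differences of at least 0.1 in either fit changed sign or moved by over 1.5 times in 13 genes in F1 and 4 in F2 with the sex measure, and in 7 and 4 without the arrays that stood apart. Leaving out single arrays moved Eomes in F1 between -0.57 and -0.34, Mcm5 in F2 between 0.15 and 0.22 and Tpx2 in F1 between -1.10 and -0.49.

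Deviations of arrays with the same replicate number correlated between -0.054 and 0.20 in F1 and between -0.17 and 0.19 in F2. Whether the numbers pair the arrays cannot be decided from these values alone. With the replicate number as a block 0 genes were called, and 1 was at an unadjusted p under 0.05 in each generation (Eomes in F1 and Neurog2 in F2).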

Other observations

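Of other cell types that divide or border the neurogenic niche, 7 oligodendrocyte precursor markers had 1 gene lower in MD at an unadjusted p under 0.05 in each generation, Gpr17, a receptor of committed precursors (-0.21 ± 0.081, SE, FDR 0.29 in F1 and -0.37 ± 0.13, SE, FDR 0.89 in F2, limma). Of 7 microglia markers Csf1r, the receptor for colony-stimulating factor, was the gene at that level in both generations (-0.17 ± 0.060, SE, FDR 0.26 and -0.16 ± 0.067, SE, FDR 0.89). Of 8 pyramidal neuron markers 2 were lower in F1, Man1a (-0.56 ± 0.11, SE, FDR 0.16) and Wfs1 (-0.25 ± 0.072, SE, FDR 0.21), and 0 in F2. Endothelial and red blood cell markers had 0 in either generation in limma. Of 6 striatal markers 1 was lower in F1 (Drd1, -0.36) and 1 higher and 1 lower in F2, and of 6 thalamic markers 2 were lower in F1 (Rora, -0.32, and Tcf7l2, -0.26) and 1 in F2 (Rora, -0.21). None of these was called at an FDR under 0.1. Over all probes 14.4% were at an unadjusted p under 0.05 in F1 and 5.60% in F2, and the counts of these short lists are not read as particular to a cell type.

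The share of probes lower in MD F1 at an unadjusted p under 0.05 was 4.61%, 10.5%, 9.37% and 5.46% from the dimmest to the brightest of 4 equal groups of probes, and the share of higher probes was 3.98%, 8.58%, 9.07% and 6.22%. The second probes of Tbr1, Sox4 and Ube2c lie in the second of these groups (log2 signal 4.45 to 7.86 in F1).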
